A study of Mus musculus with 2 samples.

Results

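The clustered protocadherins are the protein-coding genes of mouse chromosome 18 whose GENCODE vM21 names begin with Pcdha, Pcdhb or Pcdhg. By this rule there were 57 members among 21938 protein-coding genes on chromosomes 1 to 19, X and Y, namely 14 Pcdha, 22 Pcdhb and 21 Pcdhg genes. Chromatin accessibility was measured by ATAC-seq, a method that marks open DNA through cuts made by the transposase Tn5, in mouse embryonic stem cells (mESCs) of the BL6/129 hybrid strain. The line was EHMT2-dTAG-mcherry, in which the endogenous histone methyltransferase EHMT2 carries a degron tag and an mCherry reporter, and both clones carried this allele. By the study's methods, mESCs were cultured with FBS and LIF on feeder fibroblasts, which lack the allele, and received the vehicle DMSO for 24 h, without the degrader, so that EHMT2 was present. There were 2 samples, 1 from each of 2 independent clones, with 50000 cells each, and no treated group.

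Clustered protocadherins are cell surface proteins of the cadherin superfamily that bind copies of themselves on a neighbouring cell, and in the brain the combination made by a neuron serves in self-recognition of its branches. In the Pcdha and Pcdhg clusters, each gene name stands for a large variable first exon with its own promoter, which is spliced to constant exons shared by the whole cluster. Pcdhb genes have no shared constant exons, and most of their coding sequence lies in a single exon. Most of these promoters hold a conserved element around the letters CGCT, and CTCF and cohesin bind to promoters and distant enhancers to bring them together in neurons. The C-type genes, Pcdhac1, Pcdhac2, Pcdhgc3, Pcdhgc4 and Pcdhgc5, lie at the 3′ ends of their clusters and differ in sequence from the alternate genes.

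The members lie on the plus strand between positions 36930184 and 37841873 of chromosome 18 (mm10), a span of 0.912 Mb. The Pcdha cluster takes chr18:36930184-37187661, the Pcdhb cluster chr18:37264938-37524479 and the Pcdhg cluster chr18:37661793-37841873. No DNA sequence of these loci is printed here. The deposited peak list was called on both clones merged, so no value has a spread between replicates and no p-value is given. Each peak has a fold enrichment, the fragment pileup at its summit relative to the local background, and a −log10 q-value. The number of fragments over a summit was calculated back from these values. It is given with 95% Poisson intervals where useful, which cover counting error only, since PCR reads without molecular identifiers are not independent molecules.

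As a check of the labelled cell type, 6 of 7 genes that mark pluripotent stem cells had a peak at the gene start or first exon. This share was 85.7%, beside 65.3% of all protein-coding genes. Their fold enrichment ran from 2.83 at Pou5f1 to 15.9 at Zfp42, and no peak was called at the annotated start of Esrrb. However, 4 of 6 neuron genes and 4 of 6 fibroblast genes also had one (66.7% each), close to the share of all protein-coding genes. Among them was Map2 at 13.6, while none was called at Dcx, Rbfox3, Dcn or Lum. The presence of a promoter peak therefore did not separate these lists. A contribution of feeder fibroblasts to the peaks was not tested. RNA was not analysed here, so nothing below measures which protocadherins were expressed.

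Most clustered protocadherin genes carried a peak in mESCs, but most of these peaks were low. A summit within 1000 bp of the gene start or the first exon was found for 49 of 57 members (86.0%, 95% Wilson interval 74.7 to 92.7), where all protein-coding genes gave 65.3%. Long first exons offer more room for a peak, and of 596 protein-coding genes with a first exon of at least 2000 bp, 81.4% had one. That set includes all members except Pcdhb6 and Pcdhb8, so its shares here and below are not independent of those of the members. The Wilson interval also treats the members as independent, although they are neighbouring genes of 1 family. Counting only summits within 1000 bp of the gene start left 38 members (66.7%) beside 64.0% of all protein-coding genes and 68.5% of those with a long first exon. With a −log10 q-value limit of 10, at or above which a peak is called strong here, 10 members (17.5%) retained a peak, beside 47.3% of all protein-coding genes and 49.8% of those with a long first exon. With 1 merged list, none of these differences was tested.

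**Figure D1:**
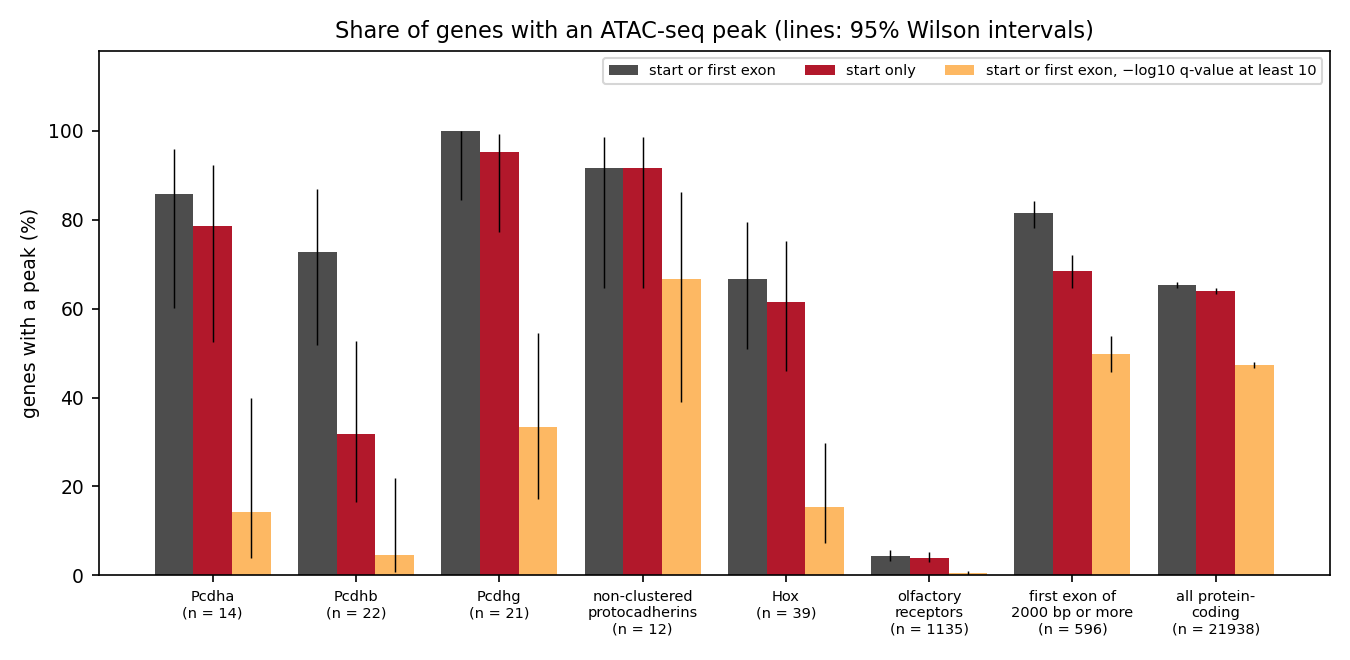
Share of genes (%) with a peak in each set, with the number of genes under each name. Dark bars count summits at the start or first exon, red bars those at the start alone and orange bars strong peaks, and lines are 95% Wilson intervals for counting error. Pcdhb drops from 72.7% to 31.8% when first exons are left out, and the orange bars of all 3 clusters lie below that of all protein-coding genes at 47.3%.

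The clusters differed in these counts. All 21 Pcdhg genes had a peak and 20 had one at the start. Of 14 Pcdha genes, 12 had a peak and 11 had one at the start. Of 22 Pcdhb genes, 16 had a peak, but only 7 had one at the start. The members without a peak were Pcdha8 and Pcdha9 in the Pcdha cluster and Pcdhb5, Pcdhb7, Pcdhb8, Pcdhb11, Pcdhb16 and Pcdhb22 in the Pcdhb cluster. Their nearest summits lay between 1984 bp (Pcdhb16) and 21176 bp (Pcdhb8) away, so none was close to the limit of 1000 bp. On the inner side of the limit, Pcdhgc5 was the farthest at 599 bp, and each of the other members with a peak had a summit inside its first exon.

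Fold enrichment was low in absolute terms at most members. The highest peak of each member had a median fold enrichment of 4.62, with quartiles of 3.70 and 6.62, while the corresponding median over all protein-coding genes with a peak was 8.38. The 61 distinct peaks at members consisted of 38 within 1000 bp of a start and 23 elsewhere at a first exon, and none was shared by several members. Of these 61 peaks, 35 exceeded the median of all peaks in the list, 3.98, and 4 exceeded the median of peaks at protein-coding gene starts, 8.12. A total of 33 had 9 fragments or fewer over the summit, and the fewest fragments of any peak in the whole list was 6. With so few fragments, whether a given member is listed at all depends on counting error, and a member without a peak cannot be called closed at this depth.

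**Figure D2:**
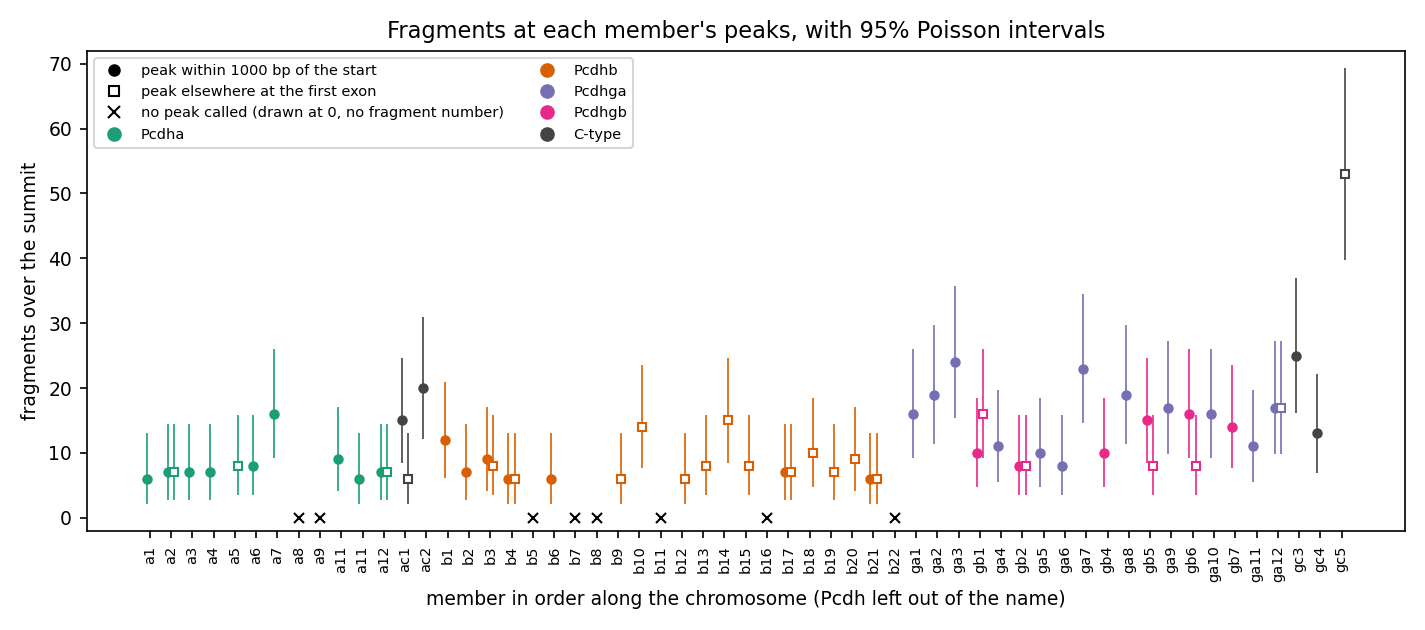
Fragments over the summit (vertical axis) for each member in its order along the chromosome, with 95% Poisson intervals for counting error. Filled circles are peaks at starts, open squares peaks elsewhere at first exons and crosses the 8 members without a called peak, for which no fragment number is known. Pcdha and Pcdhb genes mostly hold 6 to 9 fragments, and Pcdhgc5 holds the most with 53.

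In the Pcdha cluster, the alternate genes had uniformly low start peaks with 1 exception. Pcdha1 and the gene with the identifier ENSMUSG00000102206, 1 of the 2 that vM21 names Pcdha11, were lowest with a fold enrichment of 3.24 and 6 fragments each (95% Poisson interval 2.20 to 13.1). Pcdha4 followed at 3.67 with 7 fragments. Pcdha2, Pcdha3 and Pcdha12 were each at 3.70 with 7 fragments, and Pcdha6 at 4.16 with 8. The other gene named Pcdha11, ENSMUSG00000007440, reached 4.62 with 9 fragments, and a RefSeq gene starting nearby is named Pcdha10. Pcdha7 stood above them at 7.86 with 16 fragments (9.15 to 26.0) and a −log10 q-value of 11.3. Even so, its interval overlapped those of all the other start peaks of the alternate Pcdha genes. Pcdha5 had no start peak, and its peak of 4.16 lay 1388 bp into the first exon.

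Start summits of the alternate Pcdha genes fell into 2 positions. In Pcdha1, Pcdha2, Pcdha6, Pcdha12 and both genes named Pcdha11, they lay 14 to 47 bp after the gene start. In Pcdha3, Pcdha4 and Pcdha7 they lay 339, 396 and 354 bp after it, within the coding part of the first exon. These windows also resemble other Pcdha genes. The 301 bp around the Pcdha4 summit matched another copy with 98.5% identity, and those of Pcdha3 and Pcdha7 with 97.3% each, each of the 3 having 11 matches of at least 90%. The start-proximal windows of the other 6 genes had no such match. The authors' alignment placed reads that matched several sites equally well at random, so part of the reads at Pcdha3, Pcdha4 and Pcdha7 cannot be told apart from those of their neighbours. Of the 100-base words in these windows, 53.0% (Pcdha3), 13.4% (Pcdha4) and 11.4% (Pcdha7) occur again within the clusters or their flanks.

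In the Pcdhb cluster, start peaks were few (31.8% of genes, beside 64.0% of all protein-coding genes) and low. Peaks elsewhere at the first exon were called at more of its genes. Pcdhb1, the first gene of the cluster, had the highest start peak with a fold enrichment of 6.01 and 12 fragments (6.20 to 21.0). Pcdhb3 followed with 4.62 and 9 fragments. Pcdhb2 and Pcdhb17 were at 3.70 with 7 fragments. Pcdhb4, Pcdhb6 and Pcdhb21 were at 3.24 with 6 fragments, the fewest of any peak in the list. The background was at its lowest value in the list, 1.16, for every Pcdhb start peak. Over this background, the step from 3.24 to 3.70 is that from 6 to 7 fragments.

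Elsewhere at the first exon, 13 Pcdhb genes had a peak, 4 of them in addition to a start peak. The annotated first exons of Pcdhb genes ran from 142 to 8695 bp, while the start window took 1000 bp on each side. The room for the 2 kinds of peak was thus unequal. The share of other protein-coding genes with such a first-exon peak was not counted. These summits lay 1755 to 2289 bp after the gene start, with a median of 2164 bp, toward the 3′ part of the coding sequence. The highest was at Pcdhb14 with 7.40 and 15 fragments (8.40 to 24.7), the only strong Pcdhb peak (−log10 q-value 10.1). Pcdhb10 followed at 6.93 with 14 fragments and Pcdhb18 at 4.78 with 10. Pcdhb20 was at 4.62, and Pcdhb3, Pcdhb13 and Pcdhb15 were at 4.16. The rest ranged from 3.15 at Pcdhb17 to 3.70 at Pcdhb19, with Pcdhb4, Pcdhb9, Pcdhb12 and Pcdhb21 at 3.24. The best match of these windows elsewhere in the genome had 84.9% to 94.6% identity, and none held a 100-base word that recurs in the clusters or their flanks.

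**Figure D3:**
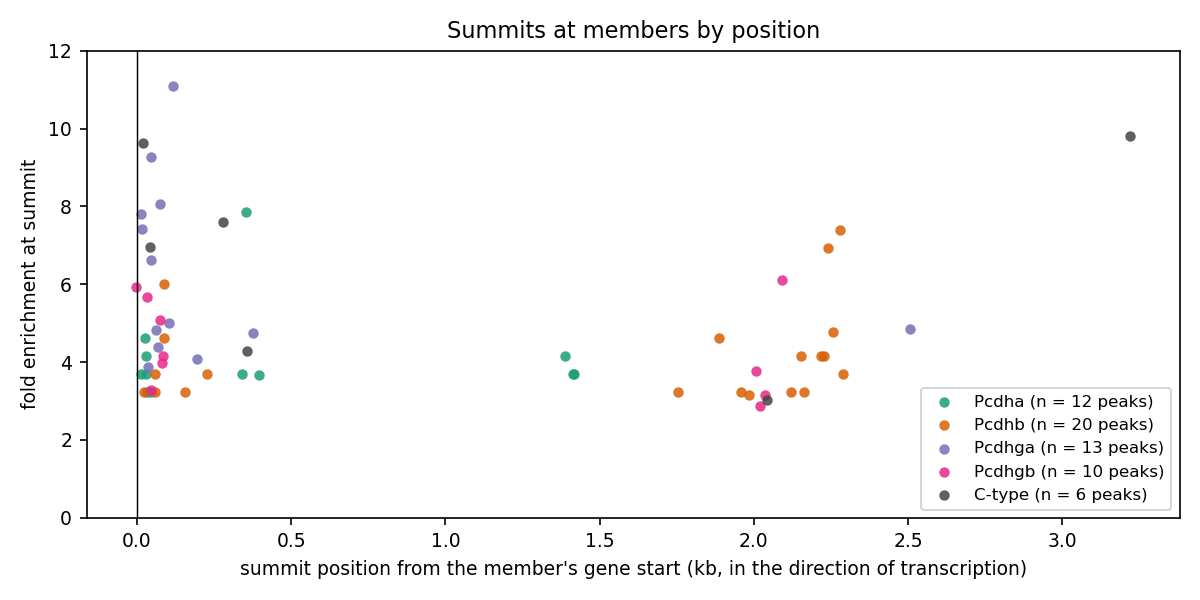
Position of each summit from the start of its gene (kb, horizontal axis) and its fold enrichment (vertical axis) for all 61 peaks at members, coloured by subfamily. Start summits crowd between -2 and 396 bp, and a separate group of first-exon summits lies between 1755 and 2508 bp, with 13 of them at Pcdhb genes, while Pcdha first-exon summits lie between 1388 and 1417 bp and that of Pcdhgc5 at 3220 bp.

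The Pcdhg cluster had the highest values of the 3. Its members' highest peaks had a median fold enrichment of 5.67, beside 3.93 for both the Pcdha and Pcdhb clusters, and 7 of the 10 members with a strong peak belonged to it. The local background was also higher in the Pcdhg cluster, at a median of 1.70 beside 1.16, and fold enrichment is measured over that background. In fragments, the members' highest peaks had medians of 16 in the Pcdhg cluster and 7.50 in each of the other clusters. As members of 1 cluster share their surroundings, these medians are descriptions of 1 locus each.

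Among the Pcdhga genes, start peaks had a median of 5.81 and ranged from 3.87 to 11.1. Pcdhga7 was highest with 11.1 and 23 fragments (14.6 to 34.5). Pcdhga3 had 9.26 with 24 fragments (15.4 to 35.7) and Pcdhga8 8.06 with 19. The first genes of the cluster, Pcdhga1 and Pcdhga2, were at 7.80 and 7.41. Pcdhga9 was at 6.62, Pcdhga10 at 5.00, Pcdhga5 at 4.82, Pcdhga12 at 4.76, Pcdhga4 at 4.38 and Pcdhga6 at 4.09. Pcdhga11 was lowest at 3.87 with 11 fragments (5.49 to 19.7). The fragment interval of Pcdhga3 did not overlap that of the typical Pcdha or Pcdhb start peak of 7 fragments (2.81 to 14.4), whereas that of Pcdhga11 did. Pcdhga3 had the most fragments of the Pcdhga start peaks, so it does not stand for the others. Its background was 1.70, beside a median of 1.16 for Pcdha and Pcdhb start peaks. The difference was not tested.

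The Pcdhgb genes, which alternate with Pcdhga genes along the chromosome, had lower start peaks with a median of 4.63. The range ran from 3.28 at Pcdhgb2 with 8 fragments to 5.93 at Pcdhgb5 with 15, whose summit lay at -2 bp. Between them were Pcdhgb7 at 3.97, Pcdhgb1 at 4.17, Pcdhgb4 at 5.08 and Pcdhgb6 at 5.67. No Pcdhgb peak was strong, while 5 of the 12 Pcdhga start peaks did. Pcdhgb8, annotated in vM21 as a polymorphic pseudogene and therefore no member, also had a peak 84 bp after its start, with a fold enrichment of 3.42 and 9 fragments.

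A second peak was called in the first exon of 4 Pcdhgb genes, 2008 to 2093 bp after the start. It reached 6.12 with 16 fragments at Pcdhgb1, 3.78 at Pcdhgb2, 3.15 at Pcdhgb5 and 2.88 at Pcdhgb6, with 8 fragments each at the last 3. These windows are near copies of each other. The windows of Pcdhgb1 and Pcdhgb2 matched each other with 99.3% identity, and 71.3% and 68.8% of their 100-base words recur in the clusters or flanks. Those of Pcdhgb5 and Pcdhgb6 matched each other with 98.3% identity or slightly less, with 31.7% and 27.7% of such words. Reads from each pair cannot be fully told apart, so these 4 values are uncertain as values of single genes. At Pcdhga12, the peak in the first exon (4.84, 2508 bp) had no match above 84.7%.

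The C-type genes had the highest start peaks of any subfamily by median, 7.28 over the 4 genes with one, beside 5.81 for the Pcdhga genes. In fragments, these medians were close, at 17.5 and 16.5. The highest single start peak was that of Pcdhga7, at 11.1. Pcdhgc3, the first C-type gene of the Pcdhg cluster, had 9.63 with 25 fragments (16.2 to 36.9) and a −log10 q-value of 18.4, 18 bp after its start. Pcdhac2 had 7.61 with 20 fragments (12.2 to 30.9), and Pcdhac1 had 6.96 with 15 fragments (8.40 to 24.7). Pcdhgc4 was lower, at 4.29 with 13 fragments (6.92 to 22.2). These 4 intervals overlap each other. Pcdhac1 also had a weak peak of 3.04 with 6 fragments 2043 bp after its start.

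Pcdhgc5 differed from the other C-type genes in that no peak was called at its start. Its peak, at chr18:37822418-37822984, lay 3220 bp after the start and 599 bp beyond the end of the spliced first exon, in sequence that vM21 also annotates as a retained intron of the same gene. It had a fold enrichment of 9.82, which 6 other peaks of the span and its flanks exceeded. Its 53 fragments (39.7 to 69.3) and −log10 q-value of 34.5 were the highest there. The local background there was 4.50, the highest of all peaks at members. The member count by the rule includes this peak, and counting starts alone gives 4 of 5 C-type genes.

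The position of all peaks is shown in the map of fold enrichment over the locus. Over the whole span of the clusters, peaks had a density of 81.2 per Mb and covered 5.49% of bases. The values were 39.5 per Mb and 2.64% on chromosome 18 and 42.8 per Mb and 2.85% over chromosomes 1 to 19, X and Y. These densities take no account of gene number. The span packs 57 members into 0.912 Mb, and 61 of its 74 peaks lay at members. Chromosome 18 has 513 protein-coding genes in 90.7 Mb. The density was 183 per Mb in the Pcdhg cluster, 77.1 in the Pcdhb cluster and 69.9 in the Pcdha cluster. It fell to 12.9 per Mb between Pcdha and Pcdhb and 14.6 between Pcdhb and Pcdhg. The 200 kb flanks together had 75.0 peaks per Mb. Counting strong peaks alone, the span had 14.3 peaks per Mb, below the 27.5 of the flanks together and above the 9.53 of the genome. The Pcdhg cluster had 38.9, while the Pcdha and Pcdhb clusters, at 7.77 and 3.85, lay below the genome.

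**Figure D4:**
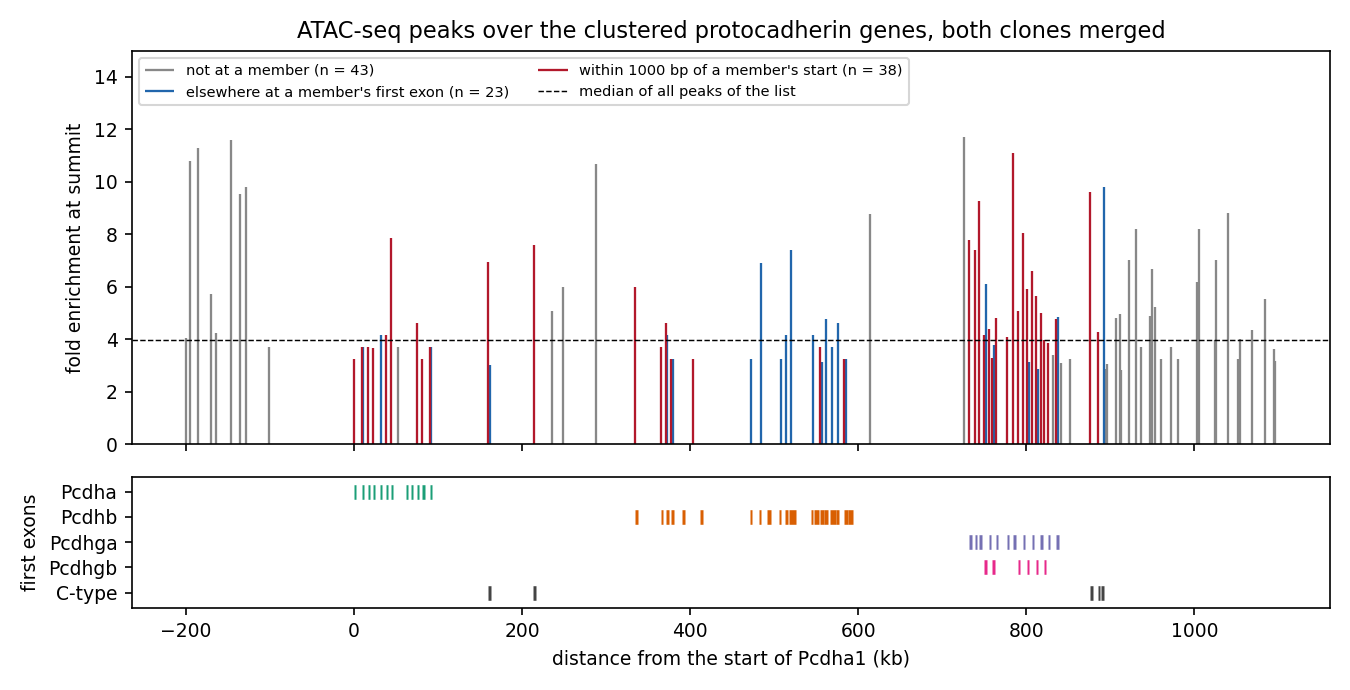
Fold enrichment of all 104 peaks (vertical lines) by distance from the start of Pcdha1 (kb), with the first exons of the members by subfamily underneath. Red lines are peaks at starts, blue lines peaks elsewhere at first exons and grey lines peaks at no member, and the dashed line is the median of all peaks, 3.98. The tallest lines inside the clusters lie in the Pcdhg cluster, and the gaps between the clusters hold few but tall lines.

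Of the 74 peaks in the span, 13 lay at no member, and 3 of them were strong. The highest of the region had a fold enrichment of 11.7 with 31 fragments (21.1 to 44.0) and lay at chr18:37655355-37656107, between Pcdhb22 and Pcdhga1, 245 bp from the start of the long noncoding RNA gene 3222401L13Rik. The peak at chr18:37217179-37218604, between the last Pcdha exon and Pcdhb1, had 10.7 with 35 fragments (24.4 to 48.7). The annotation gives no gene there except the introns of long read-through models that run across the clusters. The peak at chr18:37543584-37544456, downstream of Pcdhb22, had 8.78 with 18 fragments, but 92.0% of its window is annotated repeat with 243 other matches of at least 90% identity. The windows of the other 2 strong peaks had no other match in the genome.

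In the Pcdha cluster, the 2 unassigned peaks beyond Pcdhac2 lay in introns, at 5.08 with 10 fragments (chr18:37165262-37166042) and 6.01 with 12 fragments (chr18:37177937-37178730). The latter lay 34 bp from the start of the noncoding gene Gm10544, which runs on the minus strand. The remaining one, at 3.70, lay wholly in a repeat with 1266 other copies of at least 98% identity, so its reads cannot be assigned to this site. In the Pcdhg cluster, unassigned peaks downstream of Pcdhgc5 ranged from 2.86 to 4.95. In the downstream flank, inside the actin regulator gene Diaph1, intronic peaks reached 7.02 and 8.20 at 10476 and 18433 bp beyond the end of the clusters.

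Gene starts of the members differed from the average promoter in base composition. In the 150 bp on each side of the start, members had a median GC content of 44.2%, beside 57.8% for all protein-coding genes. The ratio of observed to expected CpG had a median of 0.581 in members and 0.589 in all protein-coding genes. Among all genes, this ratio was 0.786 at starts with a peak and 0.184 at starts without one. Among members, the medians were 0.640 at the 38 starts with a peak and 0.463 at the 19 starts without one. However, 15 of these 19 were Pcdhb genes, a subfamily with a median of 0.464. The 8 members without any peak had a median of 0.648, no lower than that of the starts with a peak. Pcdhgc5, the C-type gene with no start peak, had the lowest ratio of the C-type genes, 0.0984, while Pcdha8 without any peak had 0.879.

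**Figure D5:**
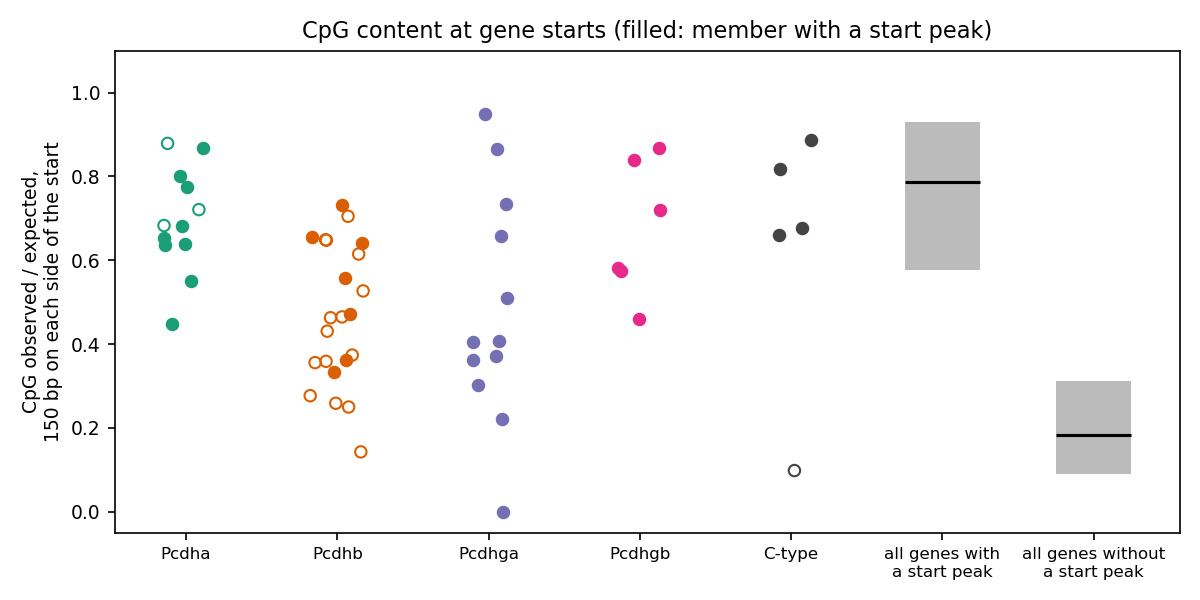
Observed over expected CpG in the 150 bp on each side of each member's start, by subfamily, with filled points for members with a start peak. Grey boxes span the quartiles of all protein-coding genes with a start peak (0.577 to 0.931) and without one (0.0912 to 0.313), with lines at the medians. Members spread from 0 to 0.948, and filled and open points overlap in Pcdha and Pcdhb.

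The letters CGCT, searched on both strands, occurred in 53 of 57 member start windows (93.0%) and in 71.3% of start windows of all protein-coding genes. They occurred in the 301 bp around all 38 start summits and all 23 first-exon summits, compared with 90.6% of peaks at protein-coding gene starts and 51.8% of all peaks. In the start peaks, the nearest copy lay a median of 37.5 bp from the summit and at most 116 bp away. This distance was not compared with that at other peaks. A match to 4 letters is frequent by its length and marks neither the conserved element nor a bound site. The core of the CTCF motif, searched on both strands as a fixed pattern, was in none of the 57 start windows (2.45% of all protein-coding genes) and in 2 of 23 first-exon windows, those of Pcdhb13 and Pcdhb14, beside 6.39% of all peaks. The fixed pattern misses diverged CTCF sites, and nothing about binding can be drawn from it.

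Other gene families, chosen by name and not matched for gene structure, served for comparison. Of 12 protocadherin genes outside the clusters, 11 had a peak (91.7%, beside 65.3% of all protein-coding genes). None was called at Pcdh12, an endothelial protocadherin. The median fold enrichment of these 11 genes was 6.42, beside 8.38 for all protein-coding genes with a peak. The highest were Pcdh9 at 13.1, Pcdh8 at 9.60 and Pcdh17 at 8.24. Of the 12 genes, 8 had a strong peak (66.7%, beside 47.3% of all protein-coding genes). Hox genes, clustered developmental regulators, had a peak at 26 of 39 genes (66.7%, beside 65.3% of all protein-coding genes) with a median of 4.44, and a strong one at 6 of 39 (15.4%). Olfactory receptor genes, which are also clustered and of which an olfactory neuron uses a single one, had a peak at 49 of 1135 genes (4.32%) with a median of 3.24.

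Genes for proteins that act on protocadherin clusters or on DNA and histone methylation had a peak in 19 of 22 cases. This share was 86.4%, beside 65.3% of all protein-coding genes. Their median fold enrichment was 8.21, beside 8.38 for all protein-coding genes with a peak. The highest were Mau2, a cohesin loader, at 15.5, Wapl, which releases cohesin, at 14.3, and Smc3, a cohesin subunit, at 14.2. Ctcf had 8.07. Ehmt2, the degron-tagged gene, had 3.33 with 13 fragments. By the first exon at the gene's 5′ end, no peak was assigned to Dnmt1, Dnmt3l or Trim28. When first exons of all annotated transcripts were used, all 22 genes had a peak, beside 70.9% of all protein-coding genes.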

How the data were processed

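The authors aligned trimmed ATAC-seq reads to mm10 with STAR, writing reads with several equally good sites at a random one, removed duplicates, shifted ends for Tn5 and called peaks on the merged clones with MACS2. The submitters' processing notes name STAR 2.7.10, Picard 2.26.0, SAMtools 1.14, bedtools 2.30.0 and MACS2 2.2.6. The deposited fold enrichment is a ratio of pileup to background, each with 1 added. Each deposited −log10 p-value and −log10 q-value is that of the summit. The deposited score and other columns served only for positions and checks. Both samples form 1 group with 1 list, and library totals were not analysed here.

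Genes came from GENCODE vM21 (GRCm38), using the first exon at the gene's 5′ end. Fragment numbers were those giving the deposited fold enrichment and p-value together, and came out whole within 0.001 for 116778 of 116782 peaks. On 19169 simulated peaks, 100% were recovered. The 301 bp windows around summits were searched against the genome with BLAST 2.17.0, counting matches over at least 50% of the length. Shares have Wilson intervals. Python 3.11.15, NumPy 2.4.6, pandas 2.3.3, SciPy 1.17.1 and Matplotlib 3.10.9 were used.

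Named genes were all members, with full values for C-type genes and the extremes of each cluster. The members, gene lists and alternatives were chosen with earlier results of these data known.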

Additional observations from a re-analysis of the deposited data

How the results depend on the processing

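No paired analysis was possible because the only peak list was called on merged reads, and for the same reason neither clone could be left out. Of 63 alternative settings over 13 results, 45 were called the same and 18 moved. Counts and medians were called moved when they changed by over 1.5 times. The fall from 49 to 38 members with the gene start alone was thus called the same. For the share of all protein-coding genes, smaller changes were also called moved. Keeping strong peaks alone (−log10 q-value from 10 upwards), the counts with a peak became 10 members (49 without this limit), 2 Pcdha, 1 Pcdhb, 7 Pcdhg, 3 C-type, 6 Hox and 5 olfactory receptor genes, all protein-coding genes fell to 47.3%, the median fold enrichment of member peaks rose to 7.96, and the span held 14.3 peaks per Mb over 1.24% of its bases. With the gene start alone, Pcdhb genes with a peak went from 16 to 7 and all protein-coding genes from 65.3% to 64.0%. For all protein-coding genes, windows of 500 and 2000 bp gave 61.1% and 69.1%, and first exons of any annotated transcript gave 70.9%. Olfactory receptor genes rose from 49 to 107 with 2000 bp and to 140 with any transcript. An alternative chosen after seeing the data, leaving out peaks with another match of at least 98% identity, gave 48 members (11 Pcdha, 16 Pcdhb, 21 Pcdhg, 5 C-type). This limit kept the peaks of Pcdha3 and Pcdha7, whose windows matched another copy with 97.3% identity. The 4 Pcdhgb genes that lost a first-exon peak also had a start peak. This count therefore cannot show how far the random placement of reads affected the members. The windows of 500 and 2000 bp and other first exons moved no member count by over 1.5 times. The depth limits these results, since 33 of 61 member peaks had 9 fragments or fewer.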

Other observations

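Of 23 genes of types other than protein-coding that start in the span, pseudogenes included, 11 had a summit within 1000 bp of their start, and for 7 of them it was a summit at a member. Of all 33475 such genes on chromosomes 1 to 19, X and Y, 18.8% had one. On the minus strand, opposite to the protocadherins, 8 of 13 had one. The antisense gene Gm38225 began 1 bp from the summit in the first exon of Pcdha4, Gm26672 began 154 bp from the first-exon summit of Pcdhga12, and Gm37446 began 194 bp from that of Pcdhb12. Gm37165 began 340 bp from the start summit of Pcdhga8, Gm37753 489 bp from that of Pcdha6, Gm10545 516 bp from that of Pcdha12 and Gm37118 825 bp from that of Pcdhga1. ATAC-seq has no strand, so a peak of the sense promoter and one of the antisense gene cannot be told apart.

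Of 13 protein-coding genes that start in the flanks, all 13 had a peak, beside 65.3% of all protein-coding genes, including Hars and Hars2 with a shared peak of 11.6, Ndufa2 and Ik with 11.3 and Tmco6 with 10.8. Of 5 protein-coding genes that start within the span and are no members, 3 are read-through models across the clusters, of which Gm42416 had a peak, that of Pcdha4, and Gm37013 and Gm37388 had none. For the other 2, no peak was called at Taf7, a subunit of the general transcription factor TFIID, or at Slc25a2, a mitochondrial carrier, whose nearest summits lay 11492 and 16951 bp away.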
